A study of Mus musculus with 9 samples.

Results

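*Trp53*, the gene of the transcription factor p53, and 9 genes known as its direct targets were followed across cultures of HC11, an immortalised mouse mammary epithelial cell line of BALB/c origin. The targets were *Mdm2*, *Ccng1*, *Sesn2*, *Bbc3*, *Bax*, *Phlda3*, *Eda2r*, *Zmat3* and *Trp53inp1*, and the list rests on what is known of p53 and not on a measurement in these cells. The 10 genes were taken by symbol from a table of raw read counts for 55228 genes. All 10 were among the 15253 genes with enough reads to be tested. The study asked what the loss of *Vangl2*, a planar cell polarity gene, changes in mammary epithelial cells, and RNA-seq of polyadenylated RNA was made from 9 undifferentiated cultures, 3 of each of 3 lines. *WT* was parental HC11 with no edit. *KD1* and *KD2* were HC11 lines edited at *Vangl2* with CRISPR/Cas9, each with its own single guide RNA, and are called *Vangl2* knockout 1 and *Vangl2* knockout 2 in the sample labels. Cells of all 3 lines grew in RPMI-1640 with serum, insulin and EGF, without prolactin or any other treatment. Each edited line was grown from a single colony and is thus 1 clone, whereas *WT* was not cloned, so the edit and the choice of clone cannot be told apart. The labels do not say what separates the 3 cultures of a line, so p-values measure the spread between these cultures, which may be technical.

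The p53 protein binds DNA as a tetramer and is held low in unstressed cells by MDM2, a ubiquitin ligase whose gene p53 itself switches on. After DNA damage or other stress p53 accumulates, mostly through changes in the protein rather than its mRNA, and raises genes for cell cycle arrest, apoptosis, DNA repair and metabolism. Many of these genes are also read by other factors, among them the p53 relatives p63 and p73 and the stress factor ATF4. HC11 cells are known to carry mutant *Trp53* alleles. A count per gene does not show which allele was read, nor how much p53 protein there was.

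The sequence that p53 binds consists of a pair of similar 10-base motifs, each called here the p53 decamer, set next to each other or a few bases apart. The stretch from 250 bases before to 50 after the annotated start was available from RefSeq (GRCm38.p6) for 8 of the 10 genes, *Zmat3* and *Trp53inp1* having no entry, in 10 windows of 300 bases. The p53 decamer, which reads the same on both strands, was searched by exact match to its consensus, with no mismatch allowed. It was found in the windows of 4 genes, *Bax*, *Mdm2*, *Ccng1* and *Trp53*. In 0 of the 10 windows were there 2 exact decamers within 13 bases of each other, which does not exclude a pair with mismatches. By the same exact rule, of all 32851 such mouse windows, 8.36% held a decamer and 0.0731% a pair that close. The matches are shown with 12 bases on each side, each 5′ to 3′ on the strand of its gene, with the decamer in capitals, so that the targets can be compared with one another. The window of *Cdkn1a*, the classical p53 target, held a pair of exact matches with a spacer of 12 bases and is shown for comparison. Near matches were passed over by this rule. They include the 10 bases directly after the last decamer shown for *Cdkn1a* and the 10 directly before that of *Ccng1*. The spacing of exact matches is thus not the layout of a p53 site.
*Bax*, chr7:45467078-45467111, minus strand: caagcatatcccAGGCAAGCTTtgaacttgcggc
*Mdm2*, chr10:117710923-117710956, minus strand: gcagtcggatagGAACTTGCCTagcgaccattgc
*Ccng1*, chr11:40755450-40755483, minus strand: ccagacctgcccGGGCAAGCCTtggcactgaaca
*Trp53*, chr11:69580272-69580305, plus strand: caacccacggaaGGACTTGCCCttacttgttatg
*Cdkn1a*, chr17:29090894-29090949, plus strand: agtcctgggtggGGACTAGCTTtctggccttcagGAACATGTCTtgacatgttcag
A match is a description of the letters and not a bound site, and binding elsewhere in a gene, such as in an intron, lies outside these windows.

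Depth was 19231428 to 28360592 reads counted to genes per culture, so that 3 counts, the floor used for what a library can show, were worth 0.0999 to 0.154 CPM, the unit of reads scaled to the TMM-adjusted library size. This floor covers counting error only. *KD2* replicate 3 stood apart from the other *KD2* cultures, with a chi-square per degree of freedom over genes of 17.4 and 22.1 against them and 1.74 between them, and *WT* replicate 1 stood apart from the other *WT* cultures, at 13.1 and 10.7 against 3.38. *Vangl2* was at 3.38, 3.96 and 4.20 CPM in *WT*, 2.77, 1.89 and 2.78 in *KD1* and 3.64, 3.93 and 4.43 in *KD2*. Its mRNA was thus lower in *KD1* (log2 fold change -0.63, adjusted p = 0.0058), while in *KD2* it was not distinguishable from *WT* (0.05, adjusted p = 0.81). The repair template carried stop codons, so the mRNA level need not follow the loss of protein and by itself checks neither label. By immunoblot the study reported almost no VANGL2 protein in *KD1* and strongly reduced protein in *KD2*. The 6 mammary epithelial markers summed to 4818 to 5389 CPM in *WT*, 5464 to 5607 in *KD1* and 2873 to 3564 in *KD2*. Summed fibroblast markers were at 13.4 to 19.0, 7.99 to 9.97 and 23.6 to 24.6 CPM in the same order, endothelial markers at 2.05 to 2.49, 4.87 to 5.50 and 1.43 to 2.10, and leukocyte markers at 3.08 to 5.94, 7.10 to 8.53 and 3.60 to 4.62. The fibroblast markers did not move together. In *KD2*, *Pdgfra* and *Col1a2* were higher than in *WT* (log2 fold changes 1.04 and 1.38) and *Col1a1* was lower (-0.71). In *KD1*, *Col1a1* was lower (-3.62), *Col1a2* had 0 reads and *Pdgfra* was not distinguishable from *WT* (0.07). The leukocyte gene *Ptprc* had 0 to 2 reads and the endothelial gene *Kdr* 0 to 2 reads per culture, so the leukocyte sum was mostly *Cd68* and the endothelial sum mostly *Pecam1* and, in *KD2*, also *Cdh5*. The epithelial sum was mostly *Krt5* and *Krt14*, which were lower in *KD2* than in *WT* (log2 fold changes -0.96 and -0.90). *Epcam* (-0.36) and *Cdh1* (-0.69) were lower there too, while *Krt8* was higher (0.76) and *Krt18* was not distinguishable from *WT* (0.13). The part of these marker differences in the results below was not tested, and in bulk RNA fewer cells that express a gene and less of its RNA per cell cannot be told apart.

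The 10 genes did not move together in either line. In *KD1*, 5 genes were higher than in *WT* (*Mdm2*, *Ccng1*, *Eda2r*, *Zmat3* and *Trp53inp1*), 3 were lower (*Sesn2*, *Bbc3* and *Bax*) and 2 were not called (*Trp53* and *Phlda3*). A call means an adjusted p under 0.05 in the quasi-likelihood test of edgeR, with adjustment over all genes tested, and by this rule *KD1* had 26.9% of all genes tested higher than *WT* and 30.0% lower. In *KD2*, 3 genes were higher than in *WT* (*Ccng1*, *Phlda3* and *Trp53inp1*), 6 were lower (*Trp53*, *Mdm2*, *Sesn2*, *Bbc3*, *Eda2r* and *Zmat3*) and *Bax* was not called, beside 34.0% of all genes higher and 33.3% lower. Of the 10 genes, 3 changed past 2-fold in *KD1* (*Eda2r* and *Trp53inp1* higher, *Bbc3* lower) and 3 in *KD2* (*Trp53inp1* higher, *Sesn2* and *Eda2r* lower), against 16.8% and 21.2% of all genes. The median log2 fold change of the 10 was 0.14 in *KD1* and -0.16 in *KD2*, beside -0.03 and 0.01 over all genes. Since most genes tested were called in each line, the share called among these 10 is not by itself a result about p53 targets. Both comparisons use the same 3 *WT* cultures and are not independent of each other. Without *KD2* replicate 3, 3 genes were still called higher and 6 lower in *KD2*, though with *Bax* called in place of *Mdm2*, and without *WT* replicate 1 the counts were 2 higher and 4 lower.

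**Figure D1:**
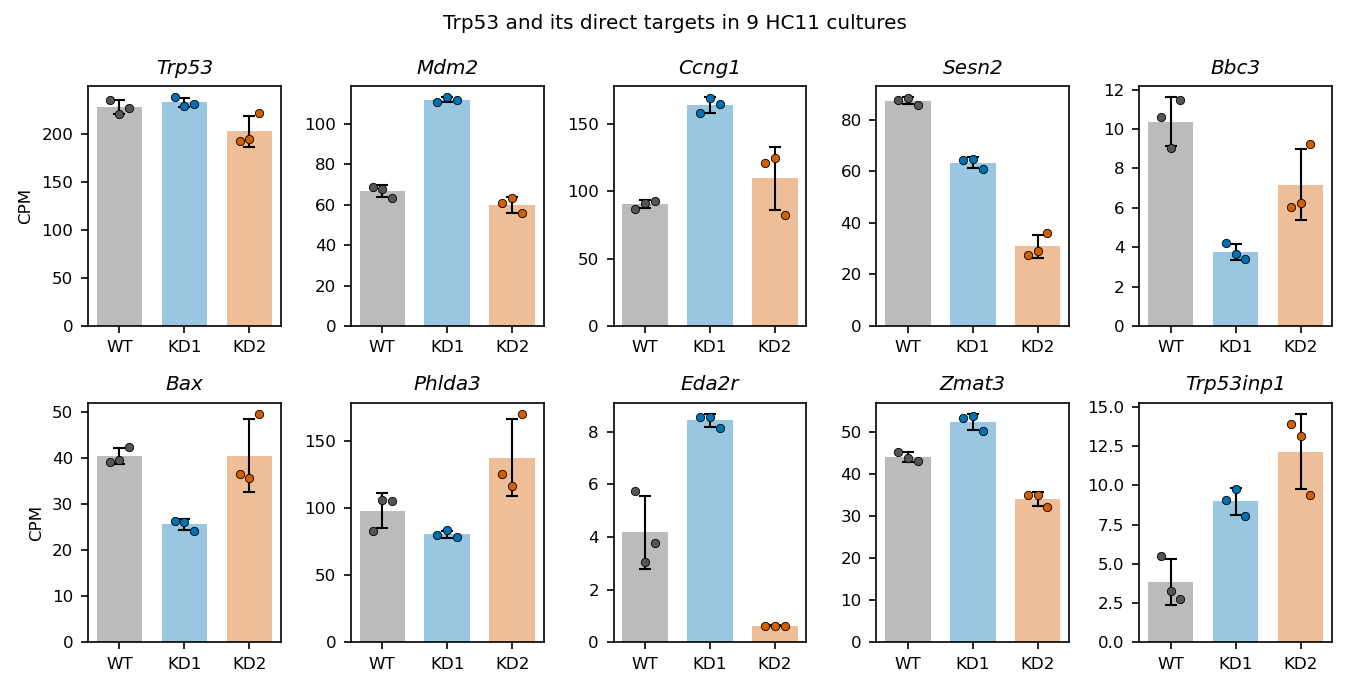
Expression of *Trp53* and 9 direct targets in CPM (vertical axes, each from 0) in *WT*, *KD1* and *KD2*. Points are the 3 cultures of each line, bars their mean and error bars the SD. *Sesn2* falls from *WT* through *KD1* to *KD2*, *Bbc3* and *Bax* are lowest in *KD1*, and *Eda2r* is highest in *KD1* and lowest in *KD2*. *KD2* replicate 3 lies apart from the other *KD2* cultures for *Trp53*, *Ccng1*, *Sesn2*, *Bbc3*, *Bax*, *Phlda3* and *Trp53inp1*.

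*Trp53* itself (ENSMUSG00000059552, chr11:69580359-69591873, plus strand) differed little between the lines. It was at 235, 221 and 227 CPM in *WT*, 238, 229 and 231 in *KD1* and 193, 194 and 222 in *KD2*. *WT* and *KD1* overlapped, and *KD2* replicate 3 alone reached the *WT* range. The log2 fold change was 0.03 (SE 0.0624, adjusted p = 0.68) in *KD1* and -0.17 (SE 0.0625, adjusted p = 0.029) in *KD2*, a level 1.12-fold lower. For *Trp53* in *KD2* the call was lost in 8 of 16 alternative analyses (another scaling, filter, test or set of cultures), among them library size alone as the scaling (-0.06), and without *WT* replicate 1, 2 or 3 or *KD2* replicate 1 or 2 (-0.13 to -0.17), whereas without *KD2* replicate 3 it was -0.21 (adjusted p = 0.000245). *KD2* was also lower than *KD1*, by 0.20 on the log2 scale (adjusted p = 0.011), a call lost without *KD2* replicate 1 (-0.17, adjusted p = 0.056) and with library size alone (-0.07). Of all 50-base stretches of its exons, 3.88% also occur in other genes, mostly in the pseudogene *Trp53-ps*.

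The feedback genes *Mdm2* and *Ccng1* were higher in *KD1*, while their changes in *KD2* were small and near the threshold. *Mdm2* (ENSMUSG00000020184, chr10:117688875-117710758, minus strand) was at 68.8, 68.0 and 63.3 CPM in *WT*, 111, 113 and 112 in *KD1* and 60.9, 63.2 and 55.7 in *KD2*. All *KD1* cultures lay far above all others, while the highest *KD2* culture lay just under the lowest *WT* culture. The *KD1* level was 1.68-fold higher than that of *WT* (log2 fold change 0.75, SE 0.0622, adjusted p = 1.8e-07). In *KD2* the log2 fold change was -0.15 (SE 0.0630, adjusted p = 0.044), and this call held in only 3 of 16 alternatives. It was lost without any 1 of 8 cultures, *KD2* replicate 2 being the exception, with values from -0.12 to -0.16 without any 1 of *WT* replicates 1 to 3, *KD1* replicates 1 to 3 and *KD2* replicate 1, and -0.08 (adjusted p = 0.156) without *KD2* replicate 3. Between the edited lines the difference was firm, with *KD2* 1.87-fold lower than *KD1* (adjusted p = 1.6e-08).

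*Ccng1* (ENSMUSG00000020326, chr11:40748552-40755311, minus strand) encodes cyclin G1, which recruits a phosphatase to MDM2. It was at 87.0, 91.6 and 92.6 CPM in *WT*, 158, 169 and 165 in *KD1* and 121, 125 and 82.8 in *KD2*. *KD1* was above all other cultures, and *KD2* was split, with replicate 3 under *WT* and the others between *WT* and *KD1*. The *KD1* level was 1.82-fold higher (log2 fold change 0.86, SE 0.116, adjusted p = 2.1e-05). In *KD2* the log2 fold change was 0.28 (SE 0.116, adjusted p = 0.044), and it was 0.47 (adjusted p = 1.01e-07) without *KD2* replicate 3. Against *WT*, *KD2* was no longer called in 9 of 16 alternatives, including the omission of any 1 of the other 8 cultures (0.18 to 0.32). *KD2* was below *KD1* by 0.58 on the log2 scale (adjusted p = 0.00046), or by 0.41 without *KD2* replicate 3.

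Among the 10 genes, those for the execution of apoptosis, *Bbc3* and *Bax*, were both lower in *KD1*. This does not extend to the BCL2 family. Of 10 further family genes tested, 4 were higher in *KD1* than in *WT* and 1 lower, beside 26.9% and 30.0% of all genes tested. *Bbc3* (ENSMUSG00000002083, chr7:16308393-16318205, plus strand) encodes PUMA, a BH3-only protein that frees BAX and BAK from their inhibitors. It was at 10.6, 9.04 and 11.5 CPM in *WT*, 4.21, 3.66 and 3.39 in *KD1* and 6.02, 6.26 and 9.25 in *KD2*. *KD1* was under every other culture, and *KD2* replicate 3 lay within the *WT* range. *Bbc3* was 2.75-fold lower in *KD1* (log2 fold change -1.46, SE 0.167, adjusted p = 4.6e-06) and 1.46-fold lower in *KD2* (-0.54, SE 0.156, adjusted p = 0.0071), or -0.72 without *KD2* replicate 3. The direct test put *KD2* above *KD1* by 0.92 (adjusted p = 0.00029), or by 0.71 without that culture.

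*Bax* (ENSMUSG00000003873, chr7:45461697-45466898, minus strand) encodes the protein that opens the outer mitochondrial membrane. Its levels were 39.1, 39.5 and 42.3 CPM in *WT*, 26.4, 26.1 and 24.1 in *KD1* and 36.4, 35.5 and 49.5 in *KD2*. *KD1* was again under every other culture, while the *KD2* cultures lay on both sides of *WT*. *Bax* was 1.58-fold lower in *KD1* (log2 fold change -0.66, SE 0.108, adjusted p = 0.00014), and *KD2* was 1.58-fold above *KD1* (adjusted p = 9.2e-05). Against *WT*, *KD2* had a log2 fold change of 0.00 (SE 0.106, adjusted p = 1.0) that became -0.14 (adjusted p = 0.0398) without *KD2* replicate 3. The value also turned negative in 6 other alternatives, among them without *WT* replicate 1 or any 1 *KD1* culture, at no more than -0.03. Its exons share 192 bases with *Gm45808* on the same strand, and reads from there cannot be told apart.

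The stress and metabolic targets *Sesn2*, *Zmat3* and *Trp53inp1* each followed a course of their own. *Sesn2* (ENSMUSG00000028893, chr4:132492032-132510501, minus strand) encodes sestrin 2, a leucine sensor that restrains mTORC1, and is known as a target of ATF4 as well as of p53. It was at 87.9, 88.4 and 85.9 CPM in *WT*, 64.3, 64.9 and 61.1 in *KD1* and 27.4, 29.2 and 36.0 in *KD2*. The 3 lines did not overlap. *Sesn2* was 1.38-fold lower in *KD1* (log2 fold change -0.46, SE 0.0805, adjusted p = 0.00022) and 2.84-fold lower in *KD2* (-1.51, SE 0.0843, adjusted p = 3e-09). *KD2* was below *KD1* by 1.04 (adjusted p = 8.2e-08), and of the 10 genes *Sesn2* was the only one besides *Bbc3* that was called lower in both lines.

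*Zmat3* (ENSMUSG00000027663, chr3:32334792-32366014, minus strand), which encodes a zinc finger RNA-binding protein that acts on splicing, was at 45.3, 43.8 and 43.1 CPM in *WT*, 53.2, 53.7 and 50.1 in *KD1* and 35.0, 35.1 and 32.1 in *KD2*. The 3 lines again did not overlap, here with *WT* between the edited lines. The change was small in both, 1.19-fold higher in *KD1* (log2 fold change 0.25, SE 0.0609, adjusted p = 0.0031) and 1.29-fold lower in *KD2* (-0.37, SE 0.0623, adjusted p = 0.00013). *KD2* was 1.53-fold lower than *KD1* (adjusted p = 7.1e-07), and all 3 calls held in all 16 alternatives.

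*Trp53inp1* (ENSMUSG00000028211, chr4:11156431-11174379, plus strand) encodes a nuclear protein that promotes apoptosis and autophagy and was the only one of the 10 genes past 2-fold higher in both lines. It was at 5.48, 3.28 and 2.78 CPM in *WT*, 9.08, 9.75 and 8.07 in *KD1* and 13.9, 13.1 and 9.40 in *KD2*, from 57 to 395 reads per culture. Every edited culture lay above every *WT* culture, and *KD2* replicate 3 fell within *KD1*. The level was 2.35-fold higher in *KD1* (log2 fold change 1.23, SE 0.209, adjusted p = 0.00017) and 3.20-fold higher in *KD2* (1.68, SE 0.204, adjusted p = 6.2e-06), and without *WT* replicate 1 the values were 1.56 and 2.00. The difference between the edited lines was 0.45 (adjusted p = 0.041). That call was lost in 5 of 16 alternatives, each of which left out 1 of *KD1* replicates 1, 2 and 3 and *KD2* replicates 1 and 2 (0.34 to 0.50), whereas without *KD2* replicate 3 it was 0.60 (adjusted p = 0.00155).

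The signalling targets *Phlda3* and *Eda2r* differed between the edited lines in opposite directions, *Phlda3* being higher and *Eda2r* lower in *KD2* than in *KD1*. *Phlda3* (ENSMUSG00000041801, chr1:135766119-135769136, plus strand) encodes a PH domain protein that competes with AKT for membrane lipids. It was at 83.0, 106 and 106 CPM in *WT*, 80.0, 83.5 and 78.6 in *KD1* and 126, 117 and 170 in *KD2*. All *KD2* cultures were above all others, and *KD1* overlapped *WT* through *WT* replicate 1. In *KD1* the log2 fold change was -0.28 (SE 0.124, adjusted p = 0.066), and it passed the threshold in 6 of 16 alternatives. These include leaving out *WT* replicate 1 (-0.39), *KD2* replicate 2 (-0.28) or *KD2* replicate 3 (-0.27, adjusted p = 0.00408). *Phlda3* was 1.40-fold higher in *KD2* (0.48, SE 0.123, adjusted p = 0.0033), or 0.33 on the log2 scale without *KD2* replicate 3, and *KD2* was above *KD1* by 0.77 (adjusted p = 8e-05).

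*Eda2r* (ENSMUSG00000034457, chrX:97333840-97377216, minus strand) encodes the receptor for ectodysplasin A2, a member of the TNF receptor family, and had the widest range of the 10 genes. It was at 5.74, 3.04 and 3.76 CPM in *WT*, 8.56, 8.57 and 8.15 in *KD1* and 0.606, 0.632 and 0.639 in *KD2*. The reads behind these values were 76 to 112 per culture in *WT*, 202 to 232 in *KD1* and 13 to 19 in *KD2*, all above the floor. The 3 lines did not overlap. *Eda2r* was 2.04-fold higher in *KD1* (log2 fold change 1.03, SE 0.174, adjusted p = 0.00017), and 6.55-fold lower in *KD2* (-2.71, SE 0.253, adjusted p = 4.6e-07). The *KD1* value was 1.32 without *WT* replicate 1, 0.85 without *WT* replicate 2 and 0.99 without *WT* replicate 3, so that it stayed called but fell under 2-fold without replicate 2 or replicate 3 of *WT*, which leaves 2 genes past 2-fold in *KD1*. *KD2* was 13.4-fold below *KD1* (adjusted p = 4.6e-09), and without any 1 culture this difference was between -3.77 and -3.72. Genes of the X chromosome as a whole had a median log2 fold change of -0.63 in *KD2* and -0.09 in *KD1* over the 448 tested, and the 10 genes within 2 Mb of *Eda2r* had medians of -0.81 and -0.17. The part of the chromosome in the *KD2* level of *Eda2r* was not tested.

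For the other genes the median of the genes within 2 Mb lay between -0.39 and 0.32 in either line. Around *Trp53* it was 0.30 in *KD1* and 0.19 in *KD2* over 99 genes, above the values of *Trp53* itself. Around *Ccng1* it was 0.04 and -0.39 over only 5 genes, and around *Mdm2* 0.02 and -0.25 over 17. The genes themselves were at 0.86 (*Ccng1*) and 0.75 (*Mdm2*) in *KD1*, and *Mdm2* was at -0.15 in *KD2*. How widely single neighbours vary around these medians was not measured. The *KD2* value of *Ccng1* (0.28) had the opposite sign to its surroundings. Around *Phlda3* it was 0.30 and 0.32 over 43 genes, so that *Phlda3* had the sign of its surroundings in *KD2* and the opposite sign in *KD1*. Around *Bax* it was 0.01 and 0.16 over 108 genes, and around *Zmat3* -0.07 and -0.20 over 23. *Sesn2*, *Bbc3* and *Trp53inp1* lay outside the medians of their neighbours in both lines, which were -0.17 to 0.17.

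**Figure D2:**
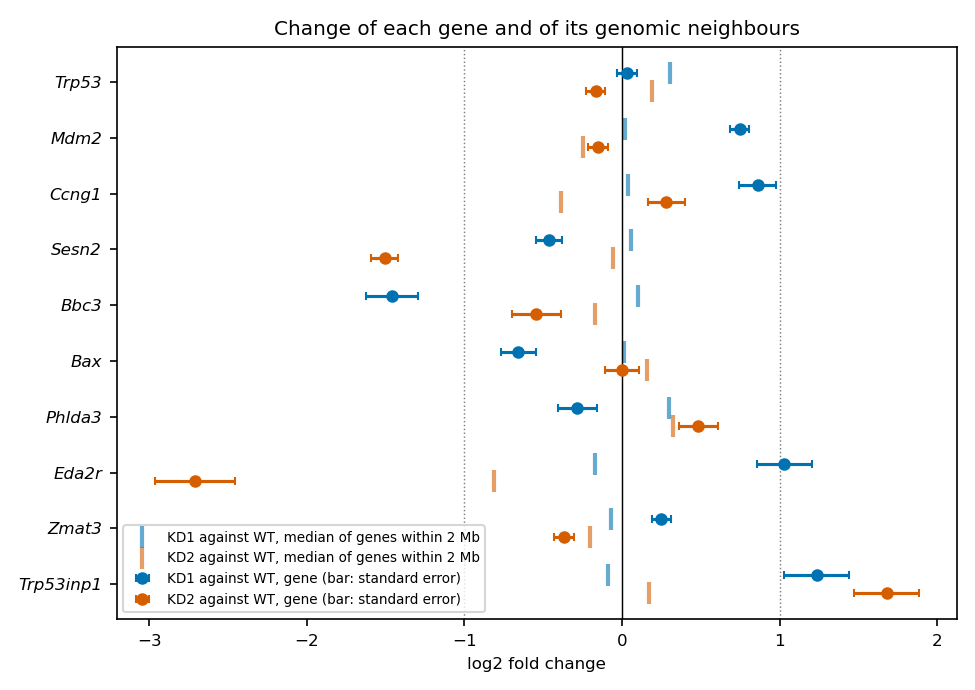
Log2 fold change (horizontal axis) of each of the 10 genes in *KD1* and *KD2* against *WT*, as points with standard errors, with the median change of the genes within 2 Mb as short vertical lines. The dotted lines mark a 2-fold change. *Eda2r* has the widest gap between the lines (1.03 and -2.71), *Sesn2* and *Bbc3* are lower in both, and *Trp53inp1* is higher in both.

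In the direct comparison of *KD2* with *KD1*, all 10 genes were called, 4 higher in *KD2* (*Bbc3*, *Bax*, *Phlda3* and *Trp53inp1*) and 6 lower (*Trp53*, *Mdm2*, *Ccng1*, *Sesn2*, *Eda2r* and *Zmat3*). Over all genes tested 34.8% were higher and 33.0% lower. Past 2-fold were 2 genes, *Sesn2* and *Eda2r*, both lower in *KD2*, against 23.3% of all genes. *Sesn2* fell under 2-fold without *KD2* replicate 1 (-0.97) and with library size alone (-0.92), and *Bbc3* passed it, as a gene higher in *KD2*, without *KD1* replicate 1 (1.00), *KD2* replicate 1 (1.02) or *KD2* replicate 2 (1.01) and with library size alone (1.04). The median log2 difference of the 10 genes was -0.39, and that of all genes 0.02. With library size alone as the scaling the median of all genes shifted by 0.11 in *KD2* against *WT* and by 0.13 in *KD2* against *KD1*, and the smaller *KD2* values above move with it.

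Levels per length were compared within each line, as CPM per kilobase of annotated exon. In *WT*, *Phlda3* (53.3 to 68.0) and *Trp53* (54.5 to 58.2) stood highest and overlapped. *Ccng1*, *Bax* and *Sesn2* followed at 24.7 to 26.8 and could not be ordered by level, then came *Mdm2* at 12.5 to 13.5, *Bbc3* at 4.26 to 5.40 and *Zmat3* at 3.77 to 3.96. *Eda2r* (0.516 to 0.974) and *Trp53inp1* (0.430 to 0.846) were lowest and overlapped. In *KD1* the order of the upper genes became *Trp53* (mean 57.6), *Phlda3* (51.8), *Ccng1* (46.8), *Mdm2* (22.0), *Sesn2* (18.3) and *Bax* (16.2), so that *Mdm2* passed both *Sesn2* and *Bax*. At the lower end of *KD1*, *Eda2r* (1.43) and *Trp53inp1* (1.39) overlapped just under *Bbc3* (1.77). In *KD2*, *Phlda3* (88.3) stood alone at the top, *Sesn2* (8.89) fell below *Mdm2* (11.8), and *Eda2r* (0.106) was far under *Trp53inp1* (1.87).

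**Figure D3:**
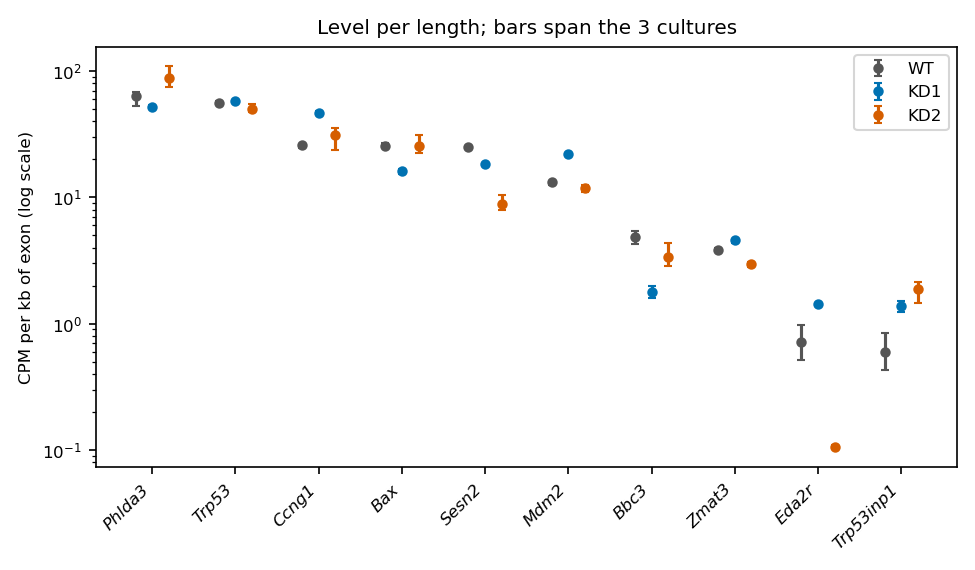
Level per length, as CPM per kilobase of exon on a log scale (vertical axis), of the 10 genes in order of their *WT* mean. Points are means of 3 cultures and bars span the lowest to the highest culture. The levels span from 88.3 for *Phlda3* in *KD2* to 0.106 for *Eda2r* in *KD2*.

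Genes of the wider p53 pathway also lay on both sides of *WT*. Of 35 further genes known as p53 targets, 33 were tested. *KD1* had 12 of them higher and 12 lower than *WT* (median log2 fold change -0.04), and *KD2* had 14 higher and 11 lower (median 0.11). Over all genes tested the shares were 26.9% and 30.0% in *KD1* and 34.0% and 33.3% in *KD2*, so these counts lie near the background. *Fas*, a death receptor gene, was higher in both lines, at 0.666, 0.960 and 1.12 CPM in *WT*, 8.08, 9.48 and 7.66 in *KD1* and 7.80, 8.99 and 7.38 in *KD2* (log2 fold changes 3.18 and 3.13, adjusted p = 2.6e-09 and 3.9e-09). *Trp53i11* was lower by 4.90 in *KD1* (adjusted p = 3e-09), from 6.15 to 6.56 CPM in *WT* to 0.0786 to 0.369. It had only 10, 2 and 4 reads in *KD1*, near the floor of 3 counts, so the size of this fall is imprecise (-5.66 to -4.53 without any 1 culture). In *KD2* it was lower by 0.42 (adjusted p = 0.040), a *KD2* call that was lost in 6 of 15 alternatives, among them without *WT* replicate 2 or 3, *KD1* replicate 3 or *KD2* replicate 1 or 2 (-0.32 to -0.42). *Dcxr*, a carbonyl reductase gene, was higher in both (1.94 and 0.61, adjusted p = 3.8e-09 and 0.0004), and *Gadd45a*, a growth arrest gene, was lower in both (-0.95 and -1.47, adjusted p = 4.3e-07 and 5.9e-09). *Cdkn1a*, which encodes the CDK inhibitor p21, was at 52.1, 54.8 and 52.7 CPM in *WT*, 126, 131 and 121 in *KD1* and 59.8, 58.2 and 65.1 in *KD2*, with log2 fold changes of 1.24 (adjusted p = 7.6e-10) and 0.20 (adjusted p = 0.014, not called without the filter on low counts). Its exons overlap an opposite-strand gene, and whether reads were counted by strand is not given in the sources used here.

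Of 16 regulators of p53, *KD1* had 3 higher and 7 lower than *WT*, and *KD2* had 3 higher and 10 lower, with medians of -0.09 and -0.19. *Mdm4*, the partner of MDM2, was lower in both lines (-0.28 and -0.43, adjusted p = 0.010 and 0.00042), and its *KD1* call was lost without *WT* replicate 1 (-0.17) or *KD1* replicate 2 (-0.25). *Hipk2*, a kinase of p53, was at 46.6 to 58.6 CPM in *WT*, 51.3 to 52.0 in *KD1* and 133 to 161 in *KD2*, a rise of 1.46 in *KD2* (adjusted p = 5.7e-09). Of 13 further genes of the BCL2 family 10 were tested. *KD1* had 4 of them higher and 1 lower than *WT*, and *KD2* had 5 higher and 3 lower. The BH3-only genes *Bmf* and *Bcl2l11* were higher in *KD2* by 2.32 and 1.35 (adjusted p = 7.2e-08 and 6.1e-09), where *Bbc3* was lower. In *KD1* their values were 0.31 (adjusted p = 0.23, or 0.65 and called without *WT* replicate 2) and 0.27 (adjusted p = 0.016, lost without *WT* replicate 1 or *KD1* replicate 2, at 0.22 and 0.25). Of 15 mitotic genes that p53 is known to lower through p21, *KD1* had 5 higher and 3 lower, while *KD2* had 3 higher and 4 lower. The counts of all 3 lists stand beside 26.9% of genes higher and 30.0% lower over all genes tested in *KD1*, and 34.0% and 33.3% in *KD2*, and nothing particular to a list is read from them.

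The p53 relative *Trp63*, a basal epithelial factor that binds many p53 sites, was at 187, 205 and 196 CPM in *WT*, 319, 337 and 321 in *KD1* and 105, 105 and 91.2 in *KD2*. The lines did not overlap, with log2 fold changes of 0.73 (adjusted p = 3.6e-07) and -0.96 (adjusted p = 2.3e-08). *Trp73* had 0, 0 and 1 reads in *WT*, 11, 16 and 13 in *KD1* and 1, 1 and 0 in *KD2*, which puts the *KD1* level at least 3.38-fold above *WT*, with *WT* set at the floor of 3 counts per library, and no fold is given for *KD2*. *Mdm2*, *Ccng1*, *Eda2r* and *Zmat3* were, like *Trp63*, higher in *KD1* than in both other lines, whereas *Trp53*, *Sesn2*, *Bbc3*, *Bax*, *Phlda3* and *Trp53inp1* were not. Such a pattern is not particular to these genes. Over all genes tested, 26.9% were higher in *KD1* than in *WT* and 33.0% lower in *KD2* than in *KD1*. The share meeting both was not counted. The likeness of *Ccng1* to *Trp63* did not extend to *KD2*, where *Ccng1* was above *WT* (0.28) and *Trp63* below it. Of 8 genes of the ATF4 programme, to which *Sesn2* is also assigned, 7 were lower in *KD1* and 8 in *KD2*, with medians of -0.69 and -0.90. The share of all genes called lower was 30.0% in *KD1* and 33.3% in *KD2*, and the medians of all genes were -0.03 and 0.01. The ATF4 genes lower in both include *Vldlr* (-2.47 and -1.92, adjusted p = 1.6e-12 and 3.5e-11), *Ddit3* (-1.35 and -0.89), *Trib3* (-1.37 and -0.79) and *Psat1* (-0.64 and -1.43). Whether either factor has a part in the values of the 10 genes was not tested.

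**Figure D4:**
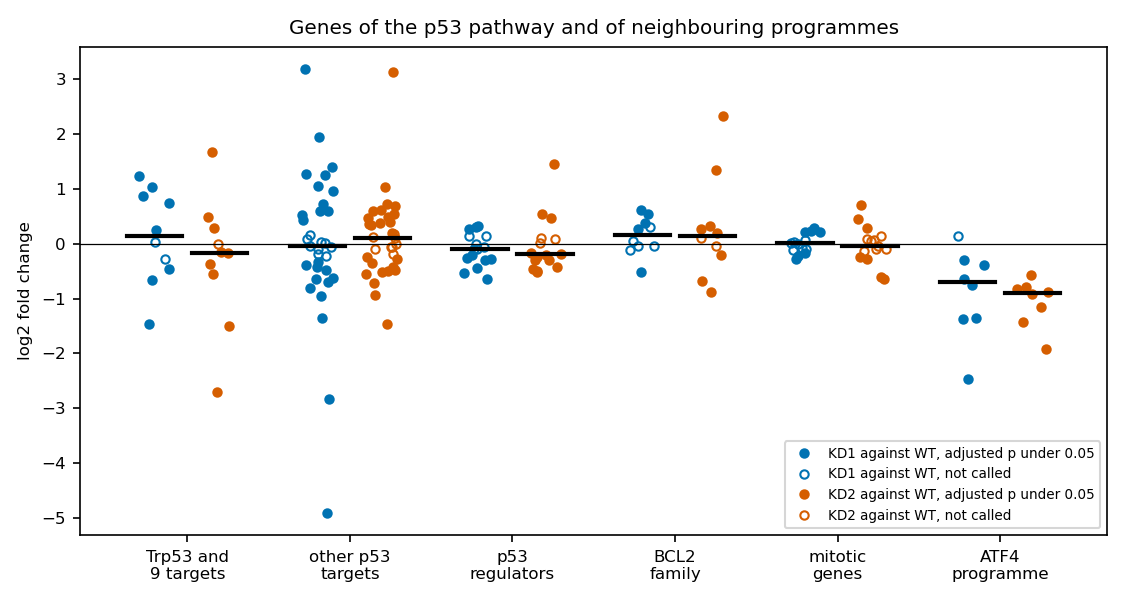
Log2 fold change (vertical axis) in *KD1* and *KD2* against *WT* of *Trp53* with its 9 targets and of 5 further gene lists. Each point is a gene, filled where the adjusted p was under 0.05, and the black lines are medians. Genes of the first 5 lists lie on both sides of 0 in both lines. The ATF4 programme has medians of -0.69 and -0.90, with 1 gene above 0 in *KD1* that was not called.

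The genes whose profile was most like that of *Trp53* over the 9 cultures, by Pearson's r of log2 CPM among 11320 other genes, were *Pdcd2l* (0.982), *Rabggtb* (0.978) and *Dynlt1f* (0.976). For *Mdm2* they were *Sec24b* (0.998), *Fam126a* (0.997) and *Spag9* (0.997). The 9 points are 3 cultures each of 3 lines, so that r mostly follows the means of the lines.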

How the data were processed

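Polyadenylated RNA was sequenced from 9 HC11 cultures, and each culture was put in its line by the genotype in its label. The deposited values are raw read counts, 1 whole number for each gene and culture. Per the submitters' processing notes, which give no versions, the authors used fastp, HISAT2 with GRCm38, featureCounts of Subread and DESeq2. Whether counting used strand is not given in the sources used here. Each gene's position and exons came from GENCODE M21 of GRCm38.

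All 9 cultures were fitted together with edgeR 4.0.16 in R 4.3.3 (TMM scaling, expression filter on the 3 groups, quasi-likelihood test, Benjamini-Hochberg adjustment over the 15253 genes kept). Each standard error was derived from the F statistic and its fold change. The procedure was tested on simulated data. Alternatives were DESeq2 1.42.0, median-of-ratios factors, library size alone, no filter, at least 10 counts in every culture, only the 6 cultures compared, the replicate block, and each culture left out in turn. All alternatives were written down with earlier results of these data known, as were the genes and lists.

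Besides the 10 genes, *Vangl2*, *Cdkn1a*, *Mdm4*, *Trp63* and *Trp73* were always named, together with up to 4 genes of each list past 2-fold in either line, by mean absolute change, among genes with a mean log2 CPM above 0. *Pmaip1*, a listed p53 target with a mean log2 CPM of -0.67, fell outside this rule. It had 15, 16 and 19 reads in *WT*, 4, 2 and 2 in *KD1* and 42, 57 and 22 in *KD2*. Its log2 fold changes against *WT* were -2.84 in *KD1* and 1.04 in *KD2*, both called by edgeR. The *KD1* reads lay near the floor of 3 counts, so the size of that fall is imprecise.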

Additional observations from a re-analysis of the deposited data

Results flagged for a closer look

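The changes of the edited lines against *WT* differed from each other, by the direct test of *KD2* against *KD1* at an adjusted p under 0.05 (edgeR), for all 10 genes. As log2 differences of *KD2* minus *KD1* they were -0.20 for *Trp53*, -0.90 for *Mdm2*, -0.58 for *Ccng1*, -1.04 for *Sesn2*, 0.92 for *Bbc3*, 0.66 for *Bax*, 0.77 for *Phlda3*, -3.74 for *Eda2r*, -0.62 for *Zmat3* and 0.45 for *Trp53inp1*. The same test passed for 14 of the other genes named by the rule above, among them *Vangl2* (0.68). The difference was -1.05 for *Cdkn1a*, 4.48 for *Trp53i11*, -1.32 for *Dcxr* and -0.52 for *Gadd45a* among the p53 targets, and -1.69 for *Trp63* among the p53 relatives. With few *Trp53i11* reads in *KD1*, its value was 4.10 to 5.24 without any 1 culture. For *Trp73* the fitted difference was -4.04, which depends on the prior count, and *KD2* was at least 3.52-fold lower with its libraries set at the floor of 3 counts. It was 1.52 for *Hipk2*, 2.01 for *Bmf* and 1.08 for *Bcl2l11*, and for the ATF4 programme 0.54 for *Vldlr*, 0.46 for *Ddit3*, 0.58 for *Trib3* and -0.79 for *Psat1*. *Fas* did not pass it (-0.06, adjusted p = 0.72), nor did *Mdm4* (-0.15, adjusted p = 0.13). Of all genes tested, 34.8% passed this test with *KD2* above *KD1* and 33.0% with *KD2* below.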

How the results depend on the processing

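Of the 30 values of the 10 genes in 3 comparisons, 23 kept their side of the threshold and 29 their sign in all 16 alternatives. The counts of called members stayed within 5 higher and 3 to 4 lower in *KD1*, 2 to 3 higher and 4 to 6 lower in *KD2*, and 3 to 4 higher and 5 to 6 lower in *KD2* against *KD1*. With at least 10 counts in every culture, the genes past 2-fold among all tested fell to 1319 in *KD1*, 1698 in *KD2* and 1914 in *KD2* against *KD1*, as that filter tests fewer genes. Values that turned sign all lay near 0. The *Bax* value in *KD2* became -0.03207 without the filter and -0.00563 with the replicate block, and leaving out 1 culture put it between -0.138 and 0.0916. Leaving out 1 culture put *Hipk2* in *KD1* between -0.126 and 0.0324, *Vangl2* in *KD2* between -0.0379 and 0.134, and *Fas* in *KD2* against *KD1* between -0.146 and 0.0307, with 0.0716 for *Fas* under library size alone. The cause of these turns was not tested.

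The labels number the cultures of each line from 1 to 3 without saying what a number shares, and deviations of same-numbered cultures correlated at only -0.0652 to 0.0789 over 9 pairs, with 4 of 9 cultures correlating best with their own number. The numbers were thus not taken as pairs. With the replicate block, 1 call among the 30 changed, *Phlda3* in *KD1* (adjusted p = 0.0355), which brought the members called lower in *KD1* to 4.

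*Trp53inp1*, *Bbc3* and *Eda2r* had the fewest reads, and 3 cultures per line limit the precision of all values.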
